A study of Homo sapiens and Mus musculus with 12 samples.

Results

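Levels of 10 regulators and surface markers of blood progenitors were followed in the RNA-seq counts of natural killer (NK) cells: Myb, Gfi1b, Gfi1, Gata1, Gata2, Klf1, Tal1, Lyl1, Cd34 and Kit. The 10 genes were taken by symbol from the 22021 rows of the mouse table, and all 10 passed the filter on low counts that left 13189 genes. The genes were selected on their difference between knockout and wild-type libraries, since Myb and Gfi1b were evenly lower in the knockout, and so their mouse values are given as a description with no test. Mouse NK cells were sorted from the spleens of mice labelled wild-type (WT, n = 3) and of mice whose NK cells lack Ehmt2 (KO, n = 3). The KO mice carry Ehmt2 flox/flox alleles and Ncr1 iCre, which acts in cells that express Ncr1, on a C57BL/6J background, and mice of this study were 8 to 12 weeks old. In the study's text WT stands for Ehmt2 flox/flox mice, so both groups carry the floxed alleles and differ by the Cre. NK92MI cells, a human NK line that makes its own interleukin 2, were treated with BIX-01294, an inhibitor of EHMT2 (n = 3), or with DMSO as its vehicle (n = 3). The study's assays of this line used 0.25 µM for 5 days, and the dose and time of the sequenced cells are not stated apart from that. No source says that the 3 libraries of a group came from separate mice or cultures, so the p-values below measure only the spread between libraries, which may be technical.

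EHMT2 (also called G9a) writes H3K9me2, a histone mark of silent chromatin. MYB is a DNA-binding factor that keeps blood progenitors dividing and immature. GATA1, GATA2, TAL1, LYL1 and KLF1 form the core of the erythroid, megakaryocyte, mast cell and stem cell programmes, in which a GATA factor and a TAL1 or LYL1 dimer bind beside each other. GFI1 and GFI1B are related zinc finger repressors that recruit LSD1 (Kdm1a) and CoREST (Rcor1), and GFI1 is the member usually expressed in lymphoid cells. KIT is the receptor for stem cell factor, and CD34 is a surface sialomucin used to isolate stem and progenitor cells.

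Values are read counts scaled to a common library size with edgeR's TMM factors (CPM), and a log2 fold change (log2FC) is KO over WT or BIX-01294 over DMSO with its standard error (SE). To be called, a gene needed a log2FC beyond 0.5 in either direction and an adjusted p below 0.05 in edgeR's quasi-likelihood test, with the Benjamini-Hochberg method over all tested genes. Mouse libraries held 25891680 to 37438868 counts, the fewest in WT 2, and human libraries 16579469 to 17165446. Ehmt2 was at 171, 143 and 137 CPM in the KO libraries and at 275, 284 and 285 CPM in the WT libraries (log2FC -0.91, SE 0.10, edgeR adjusted p = 0.0162), so the libraries titled EHMT2-KO carried less of the targeted gene. The genotype field of the same libraries reads Ezh2-KO; Ezh2 was at 35.0 to 39.5 CPM in KO and 41.6 to 45.8 CPM in WT (log2FC -0.23, edgeR adjusted p = 0.116), and the titles were followed. The 12 pan-NK genes, among them Ncr1, Klrb1c and Gzma, summed to 10751 to 12541 CPM in KO and 5614 to 9534 CPM in WT, and all 12 had a log2FC above 0. The gate also held RNA of other cells: in KO and WT the 8 B cell markers summed to 32.8 to 393 and 426 to 1313 CPM, the 10 macrophage markers to 1239 to 2343 and 2369 to 6418 CPM, the 12 granulocyte precursor genes to 30.4 to 187 and 168 to 1383 CPM, and the 16 megakaryocyte and platelet genes to 2441 to 2538 and 2906 to 4466 CPM. Most of the granulocyte sum came from Csf3r, S100a9, S100a8 and Retnlg, at 631, 367, 250 and 104 CPM in WT 3. Mpo was at 9.11 and Elane at 0.591 CPM there, so this sum is not a measure of precursor cells. No gene of these 4 lists was at 0 in every library of a group. KO 1 had the most B cell and granulocyte RNA of the KO group and WT 3 of the WT group. The mean sums of these 4 lists were lower in KO, as were 8 of the 10 regulators below, while Gfi1 and Kit were higher. Within a group the regulators did not all follow these sums: WT 3 had the highest Lyl1 but the lowest Myb of the WT libraries. In bulk RNA fewer cells of a type and less RNA per cell cannot be told apart.

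Across the 10 genes, 8 were lower and 2 higher in KO than in WT. Of these, 6 were among the genes called lower (Myb, Gfi1b, Gata1, Klf1, Tal1 and Lyl1) and 1 among those called higher (Gfi1), where 6.69% of the 13189 tested genes were called lower and 2.82% higher. In 8 genes every KO library lay below every WT library and in 1 every KO library lay above, which held for 19.3% and 19.1% of all tested genes. The rule used this contrast, so nothing is read from these counts. The median log2FC of the 10 genes was -0.71, and that of all tested genes 0.01. Without KO 2 or without KO 3 the test called no gene of the table, regulators included, and without WT 3 it called 1 of them lower; without WT 1 it called 2 lower. Without KO 1 and WT 3 together it called Myb (log2FC -0.96), Gfi1b (-1.07) and Lyl1 (-0.83) lower and no regulator higher. The study used an adjusted p under 0.01, which no gene reached in edgeR; DESeq2 at that threshold called 7 of the 10 lower and 1 higher.

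**Figure D1:**
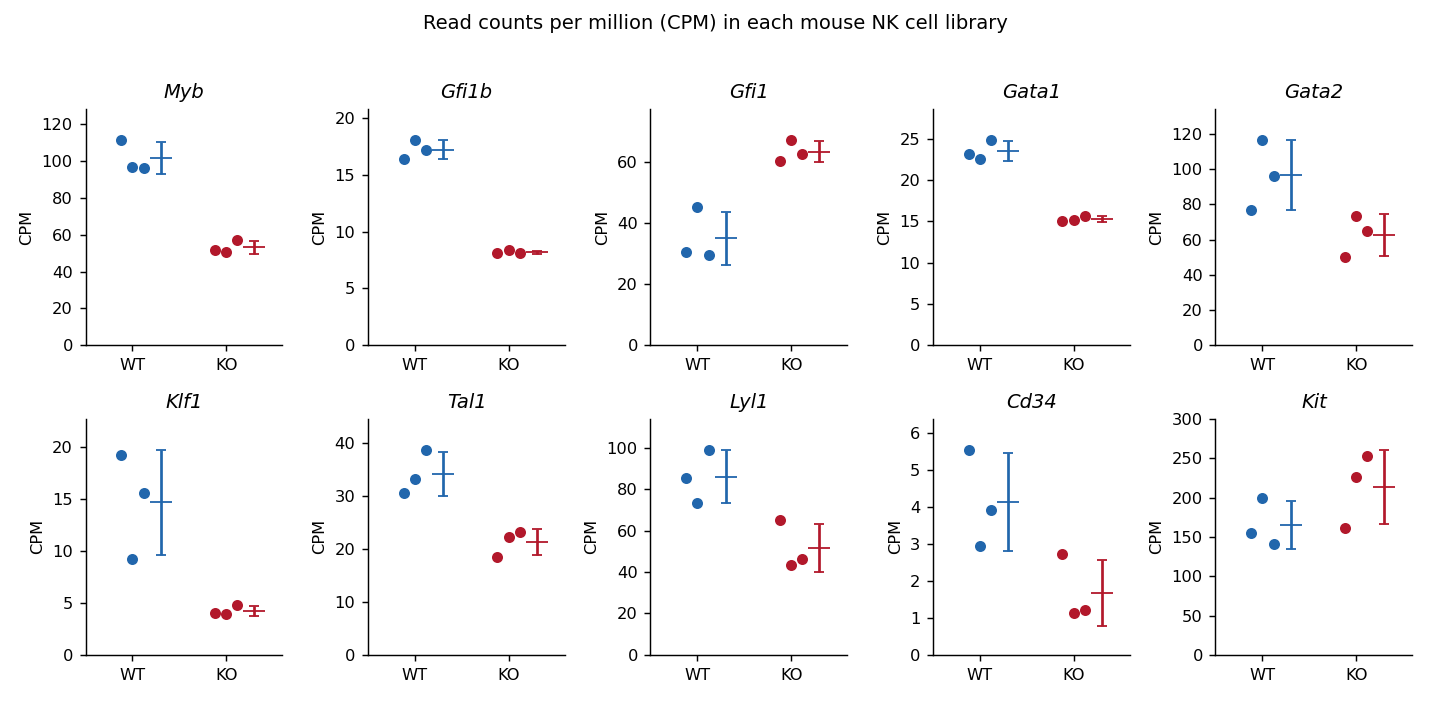
Level of each regulator in CPM (y axis, from 0) in the 3 WT (blue) and 3 KO (red) mouse libraries; each point is a library and the bar beside the points is the mean ± SD. Groups do not overlap for any gene except Kit, and Gfi1 is the only gene of these whose KO libraries all lie above the WT libraries.

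Myb lies on mouse chromosome 10 (GRCm38, chr10:21124935-21160984, minus strand). Its level was 51.6, 50.8 and 57.2 CPM in the KO libraries and 111, 96.9 and 96.1 CPM in the WT libraries. The 3 KO values were close to each other and all lay far below the lowest WT value. The mean was 101 ± 8.65 CPM in WT and 53.2 ± 3.46 CPM in KO (SD, n = 3 each), and KO was at 52.4% of WT by the fitted fold change (log2FC -0.93, SE 0.09). With any library left out the log2FC stayed between -0.99 and -0.86. Exons of the antisense gene Gm26577 share 6.26% of the exon length of Myb, and the strand setting of the counting is not stated.

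Gfi1b lies on chr2:28609450-28621982, minus strand. It was at 8.10, 8.35 and 8.14 CPM in KO and at 16.4, 18.1 and 17.2 CPM in WT. The coefficient of variation was 1.62% across KO and 4.94% across WT libraries, the lowest of the 10 genes in both groups. Gfi1b was selected as evenly lower in KO, so this ranking follows in part from the selection and nothing is read from it. The mean was 8.20 ± 0.13 CPM in KO and 17.2 ± 0.85 CPM in WT (log2FC -1.07, SE 0.11), 47.7% of WT. Leaving out any library kept the log2FC between -1.10 and -1.03.

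Its paralog Gfi1 (chr5:107716657-107726036, minus strand) stood on the other side. Gfi1 was at 60.5, 67.2 and 62.5 CPM in KO and at 30.4, 45.1 and 29.6 CPM in WT (log2FC 0.86, SE 0.17). WT 2 was the highest of the WT libraries and still below every KO library, and without it the log2FC was 1.08. The ratio of Gfi1 to Gfi1b counts was 7.46, 8.05 and 7.67 in KO and 1.86, 2.50 and 1.73 in WT. The balance between the paralogs in the bulk RNA was therefore shifted towards Gfi1 in each KO library. This ratio does not depend on library scaling, but it can depend on the mix of cells in a library. The part of the cell mix in this ratio was not tested. Exons of A430072P03Rik on the other strand share 3.17% of the exon length of Gfi1.

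Of the partners that GFI1 and GFI1B recruit, none of the 10 co-repressor genes tested was called in either direction by edgeR, 2 were higher at an unadjusted p under 0.05 and none lower (15.8% and 20.01% of all tested genes), and their median log2FC was 0.11. Kdm1a, which encodes LSD1, was at 63.8, 67.4 and 66.0 CPM in KO and 58.3, 64.6 and 58.6 CPM in WT (log2FC 0.12, SE 0.08). Gse1, the most abundant of the 10, had a log2FC of 0.42 (SE 0.15) and an edgeR adjusted p of 0.0871.

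Gata1 (chrX:7959260-7978071, minus strand) was lower by a smaller and very even margin. It was at 15.1, 15.1 and 15.7 CPM in KO and 23.1, 22.6 and 24.9 CPM in WT (log2FC -0.62, SE 0.10), which was 65.0% of WT. Gata2 (chr6:88193891-88207032, plus strand) had the same mean difference with a far wider spread. Its values were 50.0, 73.4 and 65.0 CPM in KO and 76.9, 117 and 95.9 CPM in WT (log2FC -0.62, SE 0.18), so that KO 2 came close to WT 1. Gata2 was outside the call rule, at an edgeR adjusted p of 0.0630, with Cd34 at 0.0685 as the other gene just outside, while Lyl1 at 0.0429 was the called gene nearest to the threshold. These adjusted p are given to show the threshold and test nothing. The ratio of Gata2 to Gata1 was 3.32, 4.85 and 4.14 in KO and 3.33, 5.17 and 3.86 in WT, and the groups overlapped.

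Klf1, the erythroid Krüppel-like factor (chr8:84901928-84905291, plus strand), had the largest difference of the 10. It was at 4.02, 3.93 and 4.77 CPM in KO and 19.2, 9.23 and 15.6 CPM in WT (log2FC -1.79, SE 0.27). The KO libraries were close to each other, and WT 2 stood well below WT 1 and WT 3. Tal1 (chr4:115056426-115071755, plus strand) was at 18.5, 22.2 and 23.2 CPM in KO and 30.5, 33.2 and 38.7 CPM in WT (log2FC -0.68, SE 0.13). Lyl1, the TAL1 relative (chr8:84701457-84704715, plus strand), was at 65.0, 43.5 and 46.2 CPM in KO and 85.6, 73.5 and 99.1 CPM in WT (log2FC -0.74, SE 0.18). KO 1 had the lowest Tal1 but the highest Lyl1 of the KO group.

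The cell surface genes Cd34 and Kit differed from each other. Cd34 (chr1:194938819-194961279, plus strand) was scarce, at 2.72, 1.13 and 1.21 CPM in KO and 5.56, 2.95 and 3.92 CPM in WT (log2FC -1.30, SE 0.40). KO 1 nearly reached WT 2, and without KO 1 the log2FC was -1.83. Kit (chr5:75574916-75656722, plus strand) was the most abundant of the 10 in CPM and the only gene with overlapping groups. It was at 161, 227 and 253 CPM in KO and 155, 200 and 141 CPM in WT (log2FC 0.37, SE 0.19). KO 1 lay below WT 2, and the direction depended on the scaling: with libraries scaled to the 12 pan-NK genes the log2FC of Kit was -0.43 and that of Gfi1 0.09, as the median of all genes moved to -0.81.

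**Figure D2:**
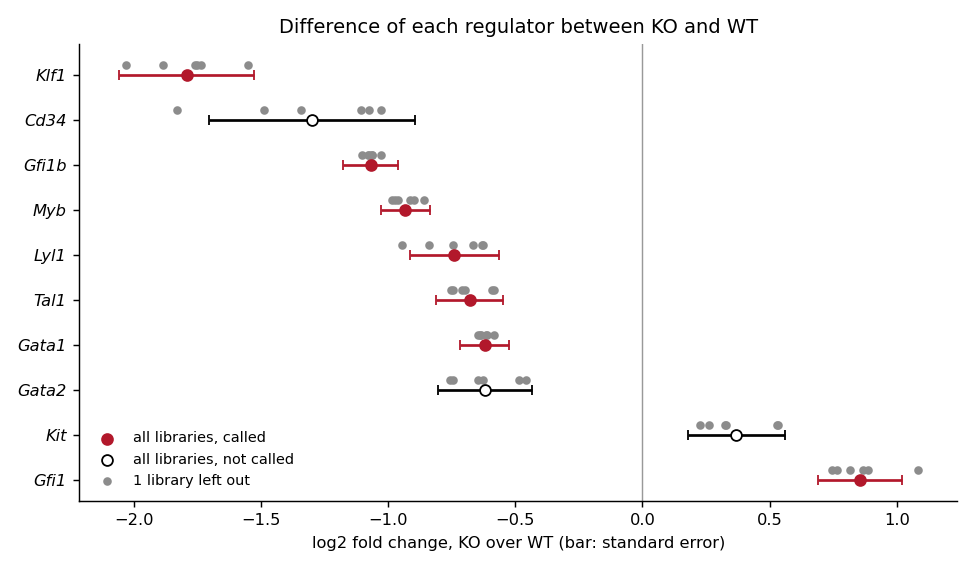
Log2 fold change of each regulator, KO over WT (x axis), with its standard error as the bar; filled red points are called and open points are not, and grey points are the 6 values with 1 library left out. The grey points stay close to the full value for Gfi1b, Myb and Gata1 and spread widest for Cd34, and none crosses 0.

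Levels per length of annotated exon were compared between genes within WT cells. Lyl1 was highest at 47.8 CPM per kb, and its lowest WT library (40.9) lay above the highest library of every other gene. Kit at 18.6 and Gata2 at 17.9 CPM per kb followed and overlapped across libraries. Myb (11.4), Gfi1 (10.99), Gata1 (9.65), Klf1 (9.59) and Gfi1b (9.40 CPM per kb) came next, with ranges that overlapped from neighbour to neighbour, and Tal1 at 7.79 CPM per kb overlapped only Klf1 among these. Cd34 was lowest at 0.568 CPM per kb, its range of 0.404 to 0.762 far below that of Tal1. Per length of all annotated exons merged, Gata1, Klf1 and Gfi1b thus lay near Myb in the bulk RNA of these sorted cells. That length need not be the length of the expressed transcript, and RNA of other cells can add to each value.

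Genes that these factors are known to work with or to control were read from lists of related genes. Over all tested genes 6.69% were called lower and 2.82% higher, the shares to set beside each count of called genes. Of 15 tested GATA and TAL1 partners, 4 were called lower and none higher, with a median log2FC of 0.16. Those lower were Cbfa2t3 (ETO2, a co-repressor; log2FC -0.70, edgeR adjusted p = 0.0239), Erg (-1.48), Spi1 (PU.1; -0.95) and Lmo2 (the bridge between GATA and TAL1; -1.07). Ldb1, which completes that bridge, was at 373 to 435 CPM in KO and 329 to 391 CPM in WT, and its log2FC was 0.16 (SE 0.10). Among 22 tested erythroid genes, 13 were called lower and none higher, with a median log2FC of -2.01. Slc4a1, the band 3 anion exchanger, was at 0.218, 0.162 and 0.713 CPM in KO and 9.71, 2.17 and 7.47 CPM in WT (log2FC -4.14, SE 0.71, edgeR adjusted p = 0.0279). Alas2, which starts haem synthesis, had a log2FC of -2.66 (SE 0.32, edgeR adjusted p = 0.0181) and Car1, a red cell carbonic anhydrase, one of -2.10 (SE 0.25, edgeR adjusted p = 0.0181). Haemoglobin rows are near copies of each other and their split is uncertain. Hbb-bs had a log2FC of -2.68 and Hba-a1, the most abundant erythroid row in WT, one of -1.08. Car2 was at a mean of 138 CPM in KO and 129 CPM in WT (log2FC 0.10). The summed CPM of the erythroid list in KO was 0.54 of that in WT, a smaller difference than the median log2FC of its genes. All 16 megakaryocyte and platelet genes had a log2FC below 0 (median -0.53, range -0.72 to -0.31), 15 at an unadjusted p under 0.05, against 20.01% of all tested genes, and 2 were called lower (Gp6, the collagen receptor, and Treml1).

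**Figure D3:**
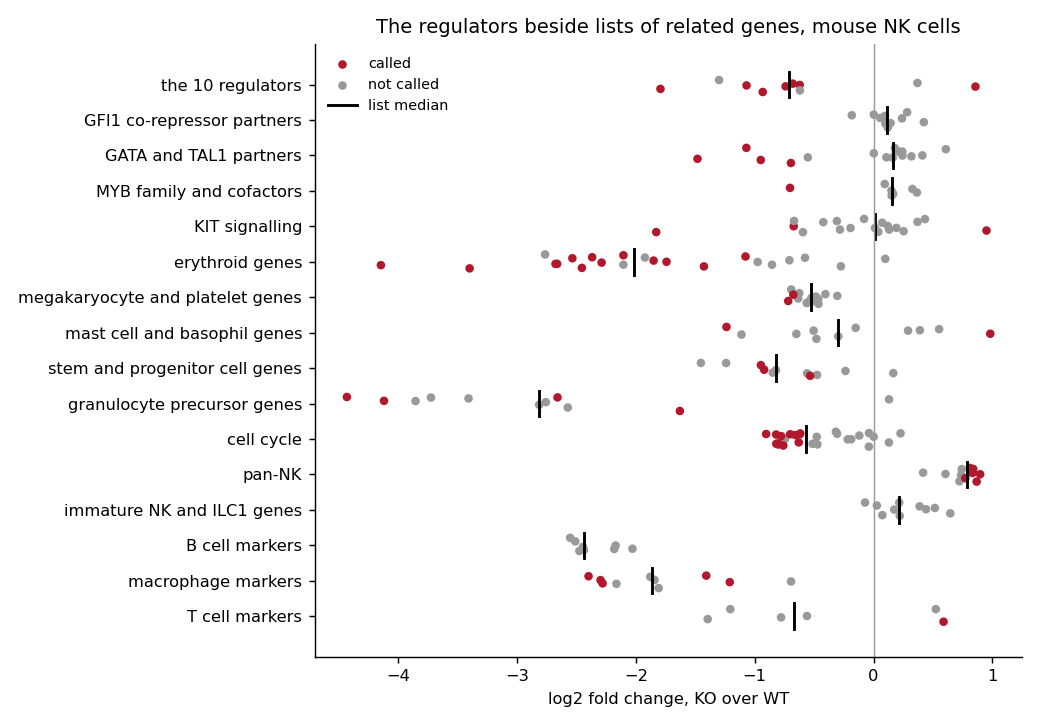
Log2 fold change, KO over WT (x axis), of every tested gene in 16 lists (y axis); red points are called genes, grey points are not called, and the black line is the list median. The 10 regulators lie mostly between -0.6 and -1.1, below 0 like the erythroid, megakaryocyte and cell cycle lists, with the co-repressor list near 0 and the pan-NK list above it.

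MYB acts with CBP/p300 and drives cycling progenitors. Of the 7 MYB family genes and cofactors, only Mybl2, the cell cycle member of the family, was called: it was at 8.10, 7.97 and 7.40 CPM in KO and 13.4, 12.9 and 11.9 CPM in WT (log2FC -0.70, SE 0.12, edgeR adjusted p = 0.0279). Ep300 and Crebbp had log2FC of 0.17 and 0.15 and were not called. Of 26 cell cycle genes 12 were called lower and none higher, where 6.69% and 2.82% of all tested genes were. The median log2FC of these 26 genes was -0.56. Ccna2 fell from 33.4 to 39.4 CPM in WT to 19.4 to 23.9 CPM in KO (log2FC -0.80, edgeR adjusted p = 0.0241). Genes of the replication helicase had smaller differences: Mcm2 to Mcm7 had log2FC between -0.22 and 0.13 and none was called, and Pcna was at 0.23. Of 11 tested stem and progenitor genes, 3 were called lower and none higher (median log2FC -0.82): Mycn (-0.95), Cd93 (-0.92) and Sox4 (-0.53).

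Of 19 KIT signalling genes, 1 was called higher and 2 lower, where 2.82% and 6.69% of all tested genes were, and the median log2FC was 0.01. Socs1, a feedback inhibitor of cytokine signalling, rose from 24.2 to 29.8 CPM in WT to 40.6 to 57.4 CPM in KO (log2FC 0.95, SE 0.15, edgeR adjusted p = 0.0269). Kitl, the ligand itself, was scarce at 0.916 to 1.14 CPM in KO and 1.63 to 5.77 CPM in WT (log2FC -1.83, SE 0.44, edgeR adjusted p = 0.0444), and the kinase Lyn had a log2FC of -0.67. Kit is also a mast cell gene: of 11 mast cell and basophil genes, 7 had a log2FC below 0 and 4 above 0, with a median of -0.30. Cma1 was called higher (log2FC 0.98) and Prss34 lower (-1.24). Cpa3, a mast cell carboxypeptidase, had a log2FC of -0.30 and was not called. In WT, Cma1 was at 74.3 to 128 CPM and Cpa3 at 9.71 to 15.9 CPM. Without KO 2 or without KO 3 no gene of any of these lists was called.

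Because marker lists of other cells were lower in the same libraries, each regulator was also set against a list, as its log2 CPM minus the mean log2 CPM of the list in the same library. Which gene was set against which list was chosen after the values had been seen, so these differences are given with no test. Myb minus the cell cycle mean was 1.11, 0.90 and 1.26 in KO and 1.59, 1.56 and 1.52 in WT. Every KO library was lower, by 0.47 in the mean, so Myb was lower by more than the average cell cycle gene. The log2FC of single cell cycle genes ran from -0.90 to 0.23, beside -0.93 for Myb. Gfi1b minus the megakaryocyte mean was -3.69, -3.75 and -3.74 in KO and -2.94, -3.11 and -3.50 in WT, again with no overlap and a mean difference of -0.54. Myb and Gfi1b were selected as evenly lower in KO, so their separation from these lists follows in part from the selection. Gata1, Tal1 and Gata2 against the same megakaryocyte list differed by only -0.10, -0.16 and -0.10, and their groups overlapped. Klf1 against the erythroid list differed by -0.03 with overlap, so Klf1 was as much lower as the mean erythroid gene; Gata1 against that list was higher in every KO library, by 1.07. Gfi1 against the pan-NK list differed by 0.09 with overlap, and Kit against that list was lower in every KO library, by 0.43. Lyl1 against macrophage markers (0.91), Cd34 against stem and progenitor genes (-0.62), Gfi1b against erythroid genes (0.63) and Myb against stem and progenitor genes (-0.21) all overlapped. The part of other cells in the lower levels of these genes was not tested.

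**Figure D4:**
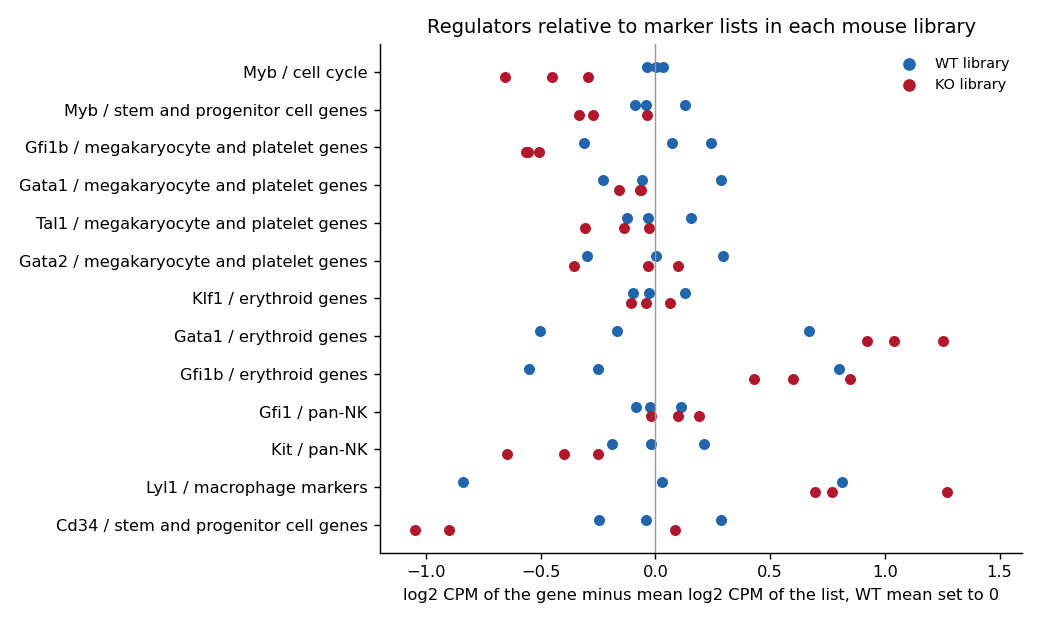
Log2 CPM of a regulator minus the mean log2 CPM of a marker list in the same library (x axis), with the WT mean of each row set to 0; blue points are WT and red points KO libraries, 3 each. The KO points lie to the left of the WT points without overlap for Myb against the cell cycle, Gfi1b against megakaryocyte genes and Kit against pan-NK genes, and to the right for Gata1 against erythroid genes.

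The genes whose pattern over the 6 mouse libraries was most like that of Myb, among 11983 genes with a mean of at least 1 CPM, were Sgol1, Papss2, Psrc1, Six5 and Mylk3. Their root mean square difference in gene-centred log2 CPM was 0.0673 to 0.0999. Sgol1, which guards sister chromatid cohesion, was at 2.75, 2.53 and 2.96 CPM in KO and 6.23, 5.08 and 4.62 CPM in WT. Nearest to Gfi1b were Bmp1, Psrc1, Ehmt2, Iqgap3 and Tmem231, at 0.0994 to 0.139. The deleted gene itself was among the 5 nearest to Gfi1b, and Psrc1, a microtubule regulator, stood in both groups of 5. Myb and Gfi1b were selected as evenly lower in KO, and Ehmt2 is lower there as the targeted gene. Such a search returns genes that are evenly lower in KO, so no link between these genes is read from it.

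In NK92MI cells the rule had used nothing, so the regulators were tested there. The regulators were chosen with earlier results of these data known, so this choice may not be independent of the NK92MI values. Of the 10 genes, 5 have a row in the human table used here, of 18304 rows, and 3 passed the filter that left 12727 genes; GATA1, GATA2, TAL1, LYL1 and CD34 were not analysed here. MYB and KIT rose with BIX-01294 and none of the 3 fell, where 7.57% of the tested genes were called higher and 7.34% lower. MYB (GRCh38, chr6:135181308-135219173, plus strand) was at 31.1, 32.9 and 29.2 CPM with BIX-01294 and 15.9, 16.1 and 13.3 CPM with DMSO. The groups were well apart, and the mean rose from 15.1 ± 1.59 to 31.0 ± 1.88 CPM (SD, n = 3 each), a log2FC of 1.04 (SE 0.10, edgeR adjusted p = 5.88e-06). KIT (chr4:54657267-54740783, plus strand) was at 20.5, 16.7 and 18.7 CPM against 10.1, 11.8 and 12.5 CPM, with no overlap (log2FC 0.70, SE 0.12, edgeR adjusted p = 5.74e-04). Over 12 alternative settings, among them each library left out in turn, the log2FC of MYB lay between 0.95 and 1.09 and that of KIT between 0.61 and 0.78, and both were called under each.

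GFI1 (chr1:92473043-92486925, minus strand) was at 101, 89.4 and 90.2 CPM with BIX-01294 and 74.1, 79.6 and 77.4 CPM with DMSO. Its groups did not overlap and its edgeR adjusted p was 0.00718, but the log2FC of 0.28 (SE 0.07) was below the fold the call required; without BIX 1 the adjusted p from edgeR was 0.0540. GFI1B had 1, 2 and 1 reads with BIX-01294 and 3, 3 and 9 with DMSO, and KLF1 had 0, 1 and 1 against 0, 0 and 1. These counts were at or near the floor of 3, no fold is given, and a difference was not detectable at this depth. MYB-AS1, which shares 1.87% of the exon length of MYB on the other strand, had 3, 3 and 1 reads against 0, 0 and 1, few beside the 224 to 560 reads of MYB. Myb and MYB thus stood in opposite directions in the knockout and the inhibitor experiments. These differ in species, in cells and in the use of gene deletion or an enzyme inhibitor. The mouse libraries also held RNA of other cells, and mouse Myb was selected for being lower in KO. The difference between the experiments was not tested. EHMT2 itself was at 35.8 to 40.4 CPM with BIX-01294 and 54.3 to 61.6 CPM with DMSO (log2FC -0.58, edgeR adjusted p = 1.01e-04).

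**Figure D5:**
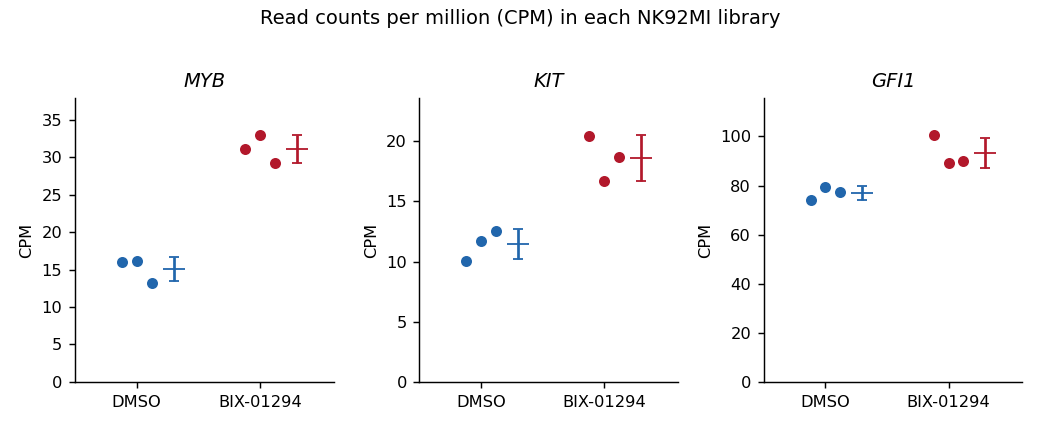
Level of MYB, KIT and GFI1 in CPM (y axis, from 0) in the 3 DMSO (blue) and 3 BIX-01294 (red) NK92MI libraries, each point a library and the bar the mean ± SD. All BIX-01294 points lie above all DMSO points in the 3 panels, with the widest relative gap for MYB.

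The bases before the RefSeq start sites of MYB and KIT, the regulators called in NK92MI cells, are shown because these genes rose together. They come from RefSeq (GRCh38.p14) and are written on the plus strand, the strand of both genes. The MYB stretch, chr6:135181058-135181307, ends at the base before its start, and the KIT stretch, chr4:54657707-54657888, stops where the first annotated exon in the window begins, 68 bases before its RefSeq start. A longer annotated KIT transcript starts upstream of this stretch, at the first base of the gene interval given above, so the stretch lies in an intron of that transcript. Capitals mark matches to CCNCNCCC on either strand, a pattern of Krüppel-like factors.
MYB: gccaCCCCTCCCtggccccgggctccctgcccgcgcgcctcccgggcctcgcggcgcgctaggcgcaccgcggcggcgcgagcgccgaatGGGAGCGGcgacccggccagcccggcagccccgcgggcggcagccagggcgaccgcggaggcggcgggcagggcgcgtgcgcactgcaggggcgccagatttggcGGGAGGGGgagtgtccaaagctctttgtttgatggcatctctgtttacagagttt
KIT: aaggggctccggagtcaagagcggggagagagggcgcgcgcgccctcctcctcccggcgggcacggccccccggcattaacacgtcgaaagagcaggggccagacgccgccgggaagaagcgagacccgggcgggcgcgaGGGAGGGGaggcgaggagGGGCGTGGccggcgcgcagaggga

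Both stretches were rich in G and C, 75.6% in MYB and 75.8% in KIT. MYB held 3 matches to the Krüppel-like pattern and KIT 2, and 53.4% of 35116 RefSeq promoters hold it in a window like that of MYB and 41.2% in a window like that of KIT. On either strand, neither held the GATA pattern GATAA (in 20.4% of windows like that of MYB), the MYB pattern CAACNG (27.0%), the GFI1 pattern AAATCA (11.6%) or CAGNTG, an E-box that TAL1 dimers are known to bind (42.5%). A match is a description of the letters, not a bound site.

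The same lists were read in NK92MI cells, where 7.57% of all tested genes were called higher and 7.34% lower. None of the 10 co-repressor genes was called, though RCOR1 had a log2FC of 0.47 (edgeR adjusted p = 1.68e-04), and 5 were lower and 1 higher at an unadjusted p under 0.05, where 23.2% of all tested genes were lower and 22.9% higher. None of 10 GATA and TAL1 partners and none of 7 MYB family genes and cofactors was called; at an unadjusted p under 0.05, 5 and 1 were lower and 3 and 2 higher. Of 18 KIT signalling genes, the adaptor GAB2 was called higher (log2FC 1.11, at 1.36 to 2.65 CPM against 0.819 to 1.05 CPM), and FYN (log2FC -0.66) and STAT5B (-0.57) were called lower. Of 26 cell cycle genes, RRM2 rose from 984 to 1023 CPM to 1589 to 1660 CPM (log2FC 0.69) and CDC20 fell from 127 to 141 CPM to 69.2 to 76.5 CPM (log2FC -0.87), and the list's median log2FC was -0.25 against -0.01 for all tested genes. Of 6 tested stem and progenitor genes, HOXA9 (log2FC 0.57) and SLAMF1 (1.54) rose and none fell. Of 8 tested erythroid genes, 5 had a log2FC above 0 and 3 below 0, with a median of 0.16. HEMGN was among those called higher (log2FC 0.79), at 2.98 to 3.19 CPM with BIX-01294 and 1.22 to 2.16 CPM with DMSO. Of the 3 tested megakaryocyte genes, TUBB1 was called higher (log2FC 1.25), while GP1BA (0.06) and CLEC1B (-0.22) were not called. GAB2 lost its call without BIX 2 (edgeR adjusted p = 0.0897) and without DMSO library b (0.0694) or c (0.0611), and HEMGN without BIX 1 (0.0562), BIX 3 (0.0511) or DMSO library a (0.119) or c (0.0511).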

How the data were processed

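Poly(A) RNA was sequenced from 3 WT and 3 KO mouse spleen NK samples and from 3 BIX-01294 and 3 DMSO samples of NK92MI. Per the study's methods and the submitters' processing notes, the authors used fastp 0.23.4 for trimming, STAR 2.7.11b for alignment to GRCm38/mm10 (mouse) and GRCh38/hg38 (human), and HTSeq 2.0.3 for counting. The deposited values are raw counts per gene symbol, not normalized; the annotation release and strand setting are not given in the sources used here. The control columns of the human table bear no replicate number and were used as the DMSO group.

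Each table was fitted whole with edgeR 4.0.16 in R 4.3.3 (TMM, filterByExpr, quasi-likelihood test, Benjamini-Hochberg over all tested genes), and the fit was tested on simulated data. Alternatives were DESeq2 1.42.0, limma 3.58.1 (voom), other scalings, filters and thresholds, a replicate block, and each library left out. The study called genes at an adjusted p under 0.01; 0.05 was used here. Every regulator was named. Of each list, up to 4 called genes by smallest adjusted p, or the most abundant, could be named. Kdm1a, Ldb1, Slc4a1, Hba-a1, Car2, the granulocyte genes, Pcna, the Mcm genes and RCOR1 were chosen after their values were seen. The Gata1-erythroid and other list pairings were also chosen after their values were seen. The regulators and lists were chosen with earlier results of these data known. The floor was set at 3 reads per library. Positions and exon lengths come from GENCODE annotations of the same builds, which need not be the release the authors used. Intervals from counts would cover counting error only, and none is given. A result for 1 gene of the human erythroid list is not reported here.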

Additional observations from a re-analysis of the deposited data

How the results depend on the processing

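In mouse cells, edgeR called 372 genes higher and 882 lower. DESeq2 called 565 and 1644, and a replicate block 573 and 1572. At an adjusted p under 0.01 edgeR called 0 and 0 genes and 0 and 0 of the 10 regulators, although 15.8% and 20.01% of tested genes were higher and lower at an unadjusted p under 0.05; DESeq2 at that threshold called 396 and 1099. With 1 library left out the counts ran from 0 to 905 higher and from 0 to 1835 lower, and over the regulators from 0 to 1 higher and from 0 to 7 lower. The lowest counts came without KO 2 and without KO 3 (0 and 0 each), without WT 3 (6 and 8) and without WT 1 (35 and 64), and the highest without WT 2 (905 and 1835), the library with the fewest counts. Without WT 3 and KO 1 together, the libraries with the most B cell and granulocyte RNA in their groups, 25 and 190 genes were called and 0 and 3 regulators (Myb, Gfi1b and Lyl1 lower); this setting and the stricter DESeq2 threshold were chosen after seeing the data. Scaling to the 12 pan-NK genes, which are themselves higher in KO, called 33 and 8517 genes and 0 regulators higher. With it Gata2 (log2FC -1.41) and Cd34 (-2.14) came to be called lower, and no regulator lost a lower call. This scaling moved the log2FC of Kit to -0.43 and of Cd3g to -0.24 as the median of all genes moved to -0.81. The causes were not tested.

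The labels do not say that replicate numbers pair the samples. The correlations of same-numbered deviations were 0.28, 0.35 and -0.19, and not every sample correlated best with its own number. With 3 libraries a group this check cannot settle whether the samples were paired. The block was used for no result above, and with it 8 regulators were called lower and 1 higher. In NK92MI cells no paired analysis was possible because the control columns bear no numbers, and every setting kept MYB and KIT called and the counts over all genes within 1.5 times. For single genes named in either table, 720 of the values under other settings kept their direction and side of the threshold, 235 fell below it, 8 passed it and 2 turned sign under pan-NK scaling without being called there (Cd3g, called before, and Kit). The 3 libraries a group and, for Cd34, GFI1B and KLF1, few reads limit what could be detected.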
